A study of Mus musculus with 4 samples.

Results

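The genes described here are 9 genes that write, erase and read DNA methylation, chosen by symbol from a table of 24421 genes, and all 9 were found. They are the writers Dnmt1, Dnmt3a and Dnmt3b, the erasers Tet1, Tet2 and Tet3, and the readers Uhrf1, Mbd1 and Mbd2. Their RNA was measured by RNA-seq of polyadenylated transcripts in cells of 4T07, a murine line of mammary carcinoma (strain Balb/cfC3H), taken 48 hours after plating. The study has 4 libraries: 2 from cells whose genotype is labelled Six2 Overexpression, here called the Six2-labelled libraries, and 2 from cells whose genotype is labelled control. Six2 encodes a homeobox transcription factor. The sources used here do not give how Six2 was introduced, what the control cells carry, or whether either line is a pool or a clone.

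DNA methylation silences genes when cytosines in CpG pairs of a promoter carry a methyl group. DNMT1 copies the methylation pattern onto the new strand after replication, guided there by UHRF1, which binds hemimethylated CpG, whereas DNMT3A and DNMT3B methylate sites anew. TET enzymes oxidise methylcytosine and so start its removal, and MBD proteins bind methylated CpG and recruit repressor complexes. In epithelial tumours the promoter of Cdh1, which encodes E-cadherin, is a well known place of such silencing, and the question here is how the genes of this machinery were expressed in cells labelled Six2 and in control cells.

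The values are RPKM, which scale reads to gene length and library size, so levels of different genes can be compared per length. The steps of the values gave read totals of 49910629 and 81524250 for the Six2-labelled libraries (replicates 1 and 2) and 43110985 and 41881864 for the control libraries (replicates 1 and 2). Six2 itself was listed at 0.0285 RPKM in Six2 replicate 1 and at 0 in the other 3 libraries, so higher Six2 RNA was not seen in these values and the groups are called by their labels. The epithelial keratin genes Krt8 and Krt18 lay between 389 and 1059 RPKM in all 4 libraries. The other 2 of the 4 epithelial markers were low in the Six2-labelled libraries. Epcam had 0.214 and 0.0833 RPKM in the Six2-labelled libraries and 0.720 and 0.684 RPKM in the control libraries, and Cdh1 is given with the pathway genes. Of 4 leukocyte markers 3 stayed under 1 RPKM in every library, Adgre1 being listed at 0, and the exception was Cd68. The list summed to 4.99 to 9.21 RPKM in the Six2-labelled libraries and 7.41 to 12.4 RPKM in the control libraries. The 3 endothelial markers, with Kdr at 0, summed to at most 0.0281 RPKM in the Six2-labelled libraries and 0.108 RPKM in the control libraries. The 4 fibroblast markers, mostly Pdgfra, summed to 5.16 to 7.40 RPKM in the Six2-labelled libraries and 5.18 to 9.64 RPKM in the control libraries.

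Promoter sequences are shown for the members with the largest relative differences among those tested, Tet2, Dnmt3b and Dnmt3a. Uhrf1, the member of highest level, is shown beside them. CpG pairs are marked because they are the sites that the encoded proteins methylate, oxidise or bind. Each run is the 250 bases before an annotated start, 5′ to 3′ on the gene's strand, from RefSeq on GRCm38.p6, with every CpG in capitals.
Tet2, chr3:133544391-133544640, minus strand: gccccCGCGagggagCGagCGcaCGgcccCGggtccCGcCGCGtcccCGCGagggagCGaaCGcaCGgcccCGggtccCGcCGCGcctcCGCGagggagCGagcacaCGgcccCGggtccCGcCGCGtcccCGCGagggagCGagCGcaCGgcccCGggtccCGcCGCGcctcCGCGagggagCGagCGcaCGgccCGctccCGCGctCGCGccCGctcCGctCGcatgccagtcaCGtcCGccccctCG
Dnmt3b, chr2:153649199-153649448, plus strand: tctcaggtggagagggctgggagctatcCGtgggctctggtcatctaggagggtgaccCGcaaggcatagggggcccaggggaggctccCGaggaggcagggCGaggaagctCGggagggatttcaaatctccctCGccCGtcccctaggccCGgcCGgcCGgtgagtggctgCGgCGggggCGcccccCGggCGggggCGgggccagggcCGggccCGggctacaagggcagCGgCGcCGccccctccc
Dnmt3a, chr12:3806730-3806979, plus strand: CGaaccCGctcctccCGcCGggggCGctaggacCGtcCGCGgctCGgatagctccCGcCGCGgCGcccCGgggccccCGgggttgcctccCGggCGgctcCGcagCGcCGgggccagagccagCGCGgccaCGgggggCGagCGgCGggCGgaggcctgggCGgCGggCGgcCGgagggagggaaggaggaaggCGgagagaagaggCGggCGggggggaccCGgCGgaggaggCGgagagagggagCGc
Uhrf1, chr17:56304063-56304312, plus strand: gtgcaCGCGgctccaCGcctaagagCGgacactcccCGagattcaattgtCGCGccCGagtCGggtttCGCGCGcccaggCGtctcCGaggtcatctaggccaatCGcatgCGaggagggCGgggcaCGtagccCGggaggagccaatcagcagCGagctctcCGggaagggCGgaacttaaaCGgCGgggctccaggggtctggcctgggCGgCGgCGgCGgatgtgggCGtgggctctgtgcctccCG
The Tet2 window held 51 CpG pairs, a number reached by 0.0670% of the 32851 such windows of all genes, whose median was 6. The corresponding numbers were 21 for Dnmt3b, reached by 16.3% of windows, 38 for Dnmt3a, reached by 1.88%, and 30 for Uhrf1, reached by 5.94%. Windows of other starts were lower in part, with 15 for a further start of Dnmt3a, reached by 27.3%, and 10 for the upstream start of Uhrf1, reached by 37.8%. Another start of Dnmt3a held 40, and the 3 starts of Dnmt1 held 2, 7 and 26. Of the 9 members 7 matched the table, with 12 windows among them, because Dnmt1, Dnmt3a and Uhrf1 have more than 1 annotated start.

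Across the 12 windows of members, on either strand, the motif TCAGGTTTC, of the MEF3 type that Six2 and its relatives bind, was in 0 windows and in 0.387% of all windows. The E2F-type motifs TTTCCCGC and TTTGGCGC were also in 0 member windows, against 0.895% and 0.417% of all windows. The motif CACCTG, an E-box bound by SNAI1 and ZEB proteins, was in 1 window, that of Dnmt3b, against 17.2% of all windows. The CCAAT box was in 5 of the 12 windows, including the one printed for Uhrf1, against 33.8% of all windows. Windows of Mbd1 and Mbd2 were left out and so were not among the 12. These are matches of letters only, and the motifs were chosen with the values known.

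Members spanned a wide range of levels. By mean RPKM over the 4 libraries the order was Uhrf1 (102), Dnmt1 (71.2), Mbd2 (42.9), Mbd1 (12.6), Tet3 (6.24), Dnmt3a (2.10), Tet2 (2.04), Dnmt3b (1.47) and Tet1 (0.0300). From Uhrf1 down to Tet3 no library of one gene overlapped a library of the next. The ranges of Dnmt3a, Tet2 and Dnmt3b overlapped, and the place of Tet2 among them changed between libraries. Dnmt3a exceeded Dnmt3b in each library. The factors were 1.47 and 1.21 in the Six2-labelled libraries and 2.30 and 1.31 in the control libraries. Tet1 lay far under all others. These level comparisons rest on the gene lengths the authors used. The lengths recovered from the steps of the RPKM values were shorter than the exon length in GENCODE for all 9 members, for example 1850 against 3214 bases for Mbd2.

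**Figure D1:**
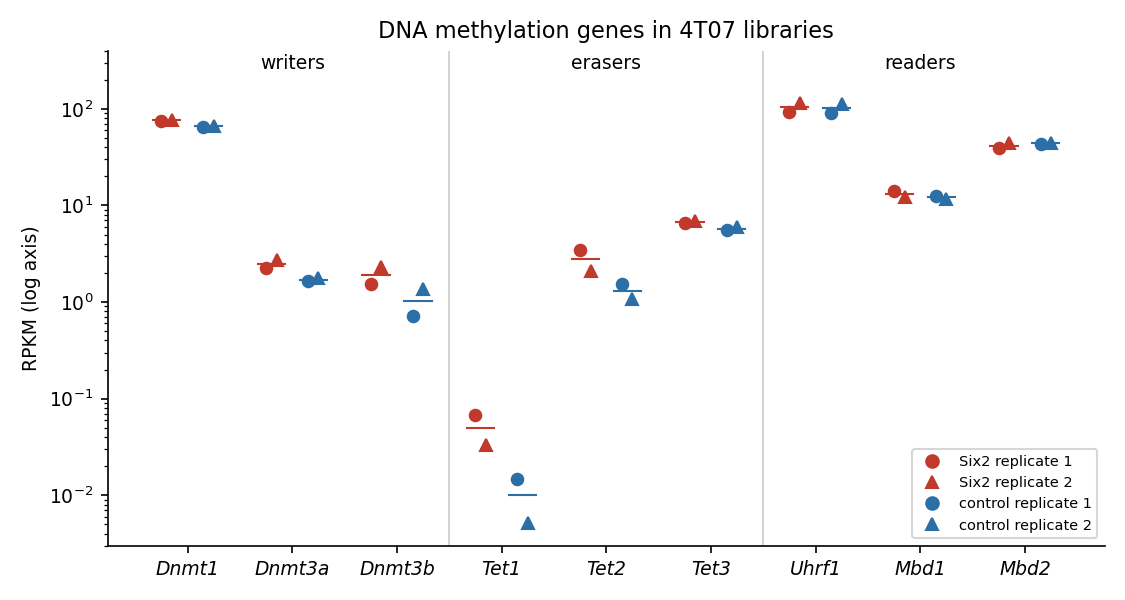
RPKM (log axis) of the 9 members in the 4 libraries, Six2 in red and control in blue, with circles for replicate 1, triangles for replicate 2 and a line at each group's mean. Both red points lie above both blue points for Dnmt1, Dnmt3a, Dnmt3b, Tet1, Tet2 and Tet3, and the groups overlap for Uhrf1, Mbd1 and Mbd2.

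In every writer and eraser gene both Six2-labelled libraries lay above both control libraries, and in the 3 reader genes the groups overlapped. That makes 6 of 9 members with Six2 libraries above and 0 with them below. Among the 8 members with enough signal to be tested it was 5, beside 21.9% of all 10654 tested genes above and 25.5% below. Differences were above 0 for 7 of 8, beside 47.9% of all tested genes. None of them passed the test over all genes in the fit on group alone. With limma-trend on log2(RPKM + 1) and Benjamini-Hochberg adjustment, 0 members were higher and 0 lower at an adjusted p under 0.05, where 0.0282% of all tested genes were called higher and 0.0845% lower. Adjusted p-values of members ran from 0.254 to 0.939. At an unadjusted p under 0.05 there were 2 members with positive differences, Tet2 and Dnmt3a, beside 7.36% of all tested genes, and 0 with negative ones, beside 9.66%. The voom method on recovered reads also called 0 members. The median difference of the 8 tested members was 0.20 on the log2(RPKM + 1) scale, against -0.0119 for all tested genes. With 2 libraries a group, an exact permutation test of a single gene could not go below p = 0.333 (two-sided), and the labels do not say whether replicates were separate cultures, so p-values reflect how far these libraries spread, possibly for technical reasons.

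Dnmt1, the maintenance methyltransferase gene (ENSMUSG00000004099.16, GRCm38 chr9:20907209-20959888, minus strand), had 75.3 and 77.5 RPKM in the Six2-labelled libraries and 64.7 and 67.2 RPKM in the control libraries. The groups did not overlap, and each pair of replicates lay close together. The ratio of means was 1.16, and the difference on the log2(RPKM + 1) scale was 0.21 (SE 0.0884, 95% interval -0.03 to 0.45, limma-trend adjusted p = 0.338). With chromosome medians removed the difference was 0.12, the median of 593 tested genes on chromosome 9 being 0.09. Dnmt1 was covered by 17580 to 39826 reads a library.

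The de novo methyltransferase gene Dnmt3a (ENSMUSG00000020661.15, GRCm38 chr12:3806007-3914443, plus strand) had 2.26 and 2.75 RPKM in the Six2-labelled libraries and 1.64 and 1.77 RPKM in the control libraries. Both Six2 values lay above both control values, with a ratio of means of 1.47. The log2(RPKM + 1) difference was 0.37 (SE 0.136, 95% interval 0.01 to 0.74, limma-trend adjusted p = 0.289). It was 0.53 with a pseudocount of 0.1 and 0.57 with voom, since adding 1 to low values understates their change. On chromosome 12, where Dnmt3a lies, the median difference of 355 tested genes was 0.25, and the difference of Dnmt3a was 0.12 with chromosome medians removed. The part that the chromosome-wide shift has in the value was not tested. In GENCODE 133 exon bases of Dnmt3a are shared with its antisense gene Dnmt3aos, and the sources used here do not say whether counting used the strand.

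Dnmt3b, the other de novo enzyme gene (ENSMUSG00000027478.15, GRCm38 chr2:153649450-153687730, plus strand), had 1.53 and 2.28 RPKM in the Six2-labelled libraries and 0.713 and 1.35 RPKM in the control libraries. The lower Six2 library and the higher control library were close to each other, and replicate 2 was the higher one in both groups. The ratio of means was 1.85 and the log2(RPKM + 1) difference 0.52 (SE 0.232, 95% interval -0.10 to 1.15, limma-trend adjusted p = 0.355). The difference was 0.30 without control replicate 1 and 0.34 without Six2 replicate 2. It was 0.86 with a pseudocount of 0.1 and 0.97 with voom. Its chromosome, number 2, had a median difference of -0.04.

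Within the summed RPKM of the 3 writers, Dnmt1 held 95.2% and 93.9% in the Six2-labelled libraries and 96.5% and 95.6% in the control libraries. The de novo genes thus made up only a few percent of writer transcripts in every library. Dnmt1 exceeded Dnmt3a by a factor of 33.4 and 28.2 in the Six2-labelled libraries and of 39.5 and 38.0 in the control libraries. The sum of writers was 80.8 ± 2.40 RPKM in the Six2-labelled libraries and 68.7 ± 2.29 RPKM in the control libraries (SD, n = 2 each).

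**Figure D2:**
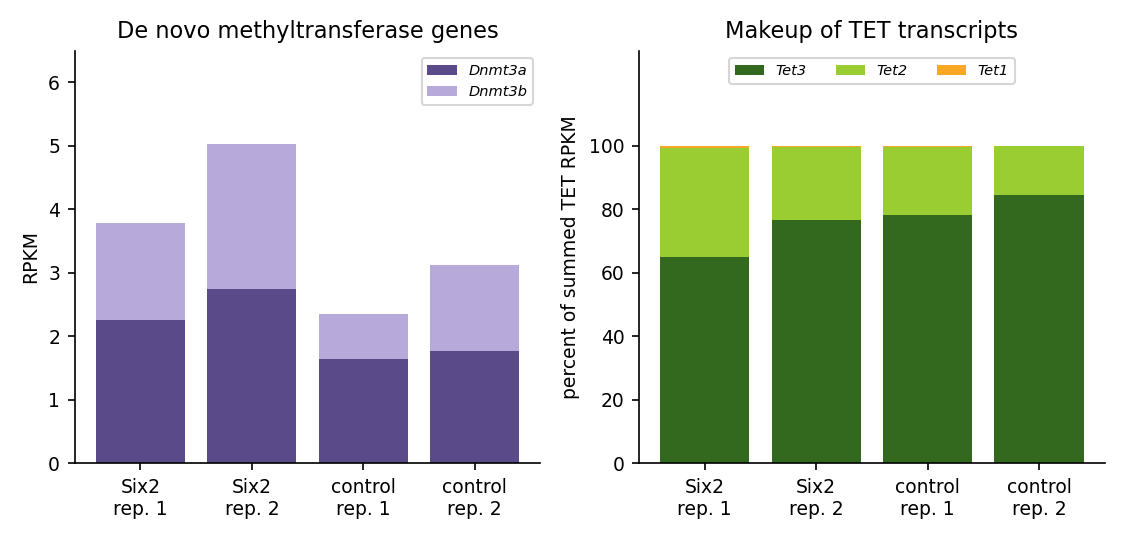
Left, stacked RPKM of Dnmt3a (dark) and Dnmt3b (light) in each library; right, the percent of summed TET RPKM held by Tet3, Tet2 and Tet1. The stack of de novo genes is higher in both Six2-labelled libraries than in either control library, and the Tet2 share is 34.3% and 23.1% in the Six2-labelled libraries and 21.5% and 15.3% in the control libraries.

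Among the erasers Tet2, a methylcytosine dioxygenase gene often mutated in blood cancers (ENSMUSG00000040943.12, GRCm38 chr3:133463679-133545139, minus strand), had 3.44 and 2.10 RPKM in the Six2-labelled libraries and 1.52 and 1.08 RPKM in the control libraries. The groups did not overlap, although the Six2 replicates differed from each other by more than the nearest values of the groups did. The ratio of means was 2.13, and the log2(RPKM + 1) difference of 0.70 (SE 0.229, 95% interval 0.08 to 1.31, limma-trend adjusted p = 0.254) was the largest of the 8 tested members. That order turned in 3 alternatives, in which Dnmt3b exceeded Tet2: 0.57 against 0.48 with chromosome medians removed, 0.75 against 0.56 without control replicate 2 and 0.71 against 0.44 without Six2 replicate 1. The Tet2 difference was 0.44 without Six2 replicate 1 and 0.96 without Six2 replicate 2. Tet2 lies on chromosome 3, where 491 tested genes had a median difference of 0.21, and the difference of Tet2 with chromosome medians removed was 0.48. In GENCODE it shares 43 exon bases with Gm42567 on the opposite strand.

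Tet3, the most abundant TET gene here (ENSMUSG00000034832.15, GRCm38 chr6:83362373-83459084, minus strand), had 6.52 and 6.95 RPKM in the Six2-labelled libraries and 5.52 and 5.99 RPKM in the control libraries. The groups did not overlap, the gap between them being slightly wider than that between the replicates of either, and the ratio of means was 1.17. Its log2(RPKM + 1) difference was 0.20 (SE 0.109, 95% interval -0.10 to 0.49, limma-trend adjusted p = 0.447).

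Tet1, the TET gene best known from embryonic stem cells (ENSMUSG00000047146.17, GRCm38 chr10:62804570-62908996, minus strand), was near the limit of detection. It had 0.0669 and 0.0331 RPKM in the Six2-labelled libraries, which are 47 and 38 reads, and 0.0148 and 0.00509 RPKM in the control libraries, which are 9 and 3 reads. Both Six2-labelled libraries lay above both control libraries, with a ratio of means of 5.02. Tet1 stayed under 1 RPKM in all 4 libraries and so was left out of the test, which needed 1 RPKM or more in 2 libraries. With no filter on low values, its log2(RPKM + 1) difference was 0.0559 (SE 0.0213, limma-trend adjusted p = 0.366 over 16679 genes). At so low a level adding 1 holds the difference near 0, so its size cannot be compared with those of the other members. In bulk RNA, fewer cells expressing a gene and less RNA per cell cannot be told apart.

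Within the summed TET RPKM, Tet3 held 65.0% and 76.5% in the Six2-labelled libraries and 78.3% and 84.6% in the control libraries, and Tet2 held most of the rest. Tet3 exceeded Tet2 by a factor of 1.89 and 3.31 in the Six2-labelled libraries and of 3.64 and 5.52 in the control libraries. The shares are a description without a test, and the ranges of the groups came close to each other. The TET sum was 9.56 ± 0.671 RPKM in the Six2-labelled libraries and 7.06 ± 0.0193 RPKM in the control libraries (SD, n = 2 each).

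Of the readers Uhrf1, whose protein brings DNMT1 to replicated DNA (ENSMUSG00000001228.14, GRCm38 chr17:56303321-56323486, plus strand), had 92.8 and 114 RPKM in the Six2-labelled libraries and 90.5 and 111 RPKM in the control libraries. The values split by replicate number and not by label, replicate 2 being the higher library in both groups. The ratio of means was 1.03 and the log2(RPKM + 1) difference 0.04 (SE 0.166, 95% interval -0.41 to 0.48, limma-trend adjusted p = 0.939). The difference was -0.11 without control replicate 1 and also -0.11 without Six2 replicate 2. Uhrf1 lies on chromosome 17, where 527 tested genes had a median difference of -0.21, and its difference with chromosome medians removed was 0.24.

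Mbd2, a methyl-CpG binding protein that joins the NuRD repressor complex to methylated DNA (ENSMUSG00000024513.16, GRCm38 chr18:70568189-70626131, plus strand), had 39.5 and 43.9 RPKM in the Six2-labelled libraries and 43.6 and 44.7 RPKM in the control libraries. The groups overlapped, and it was the one tested member with a difference below 0, at -0.08 (SE 0.101, 95% interval -0.36 to 0.19, limma-trend adjusted p = 0.734), and it stayed between -0.16 and -0.01 under the alternatives. Mbd1, which binds methylated CpG and recruits histone methyltransferases (ENSMUSG00000024561.10, GRCm38 chr18:74267605-74282732, plus strand), had 14.0 and 12.3 RPKM in the Six2-labelled libraries and 12.5 and 11.7 RPKM in the control libraries. Here too the groups overlapped, with a difference of 0.11 (SE 0.114, 95% interval -0.19 to 0.42, limma-trend adjusted p = 0.682), and with 1 library left out it ran from 0.03 to 0.20. The summed readers were at 158 ± 17.2 RPKM in the Six2-labelled libraries and 157 ± 15.0 RPKM in the control libraries (SD, n = 2 each).

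**Figure D3:**
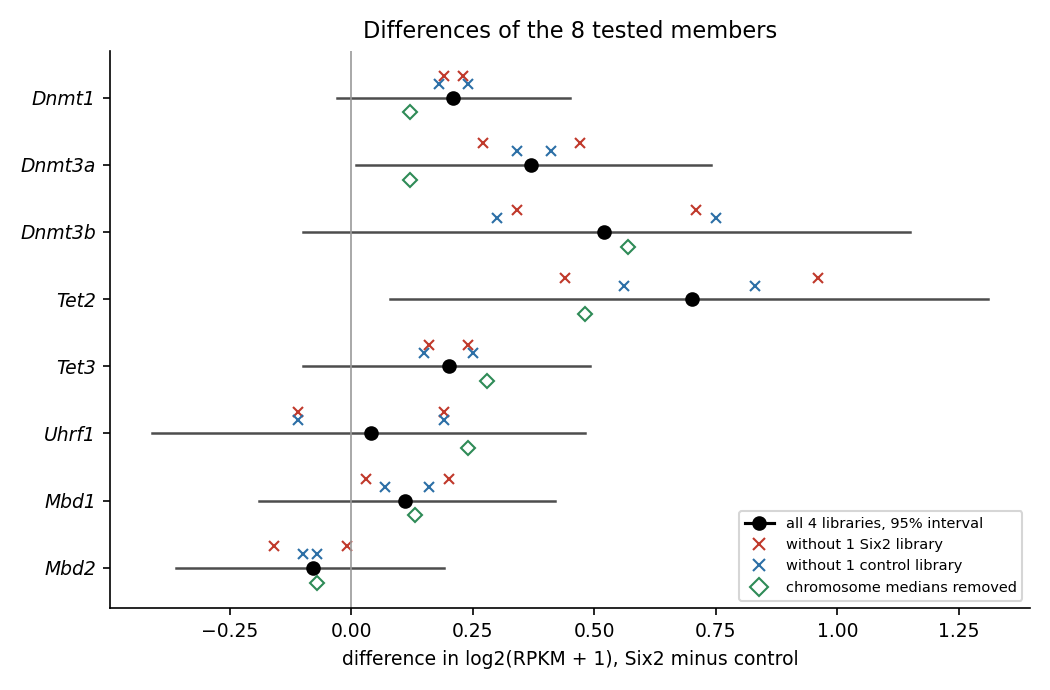
Differences in log2(RPKM + 1), Six2 minus control, of the 8 tested members, with 95% intervals (black), values with 1 library left out (crosses, red for a Six2 and blue for a control library) and values with chromosome medians removed (open diamonds). Only the intervals of Tet2 and Dnmt3a, neither adjusted for the number of genes, lie wholly above 0, and the crosses of Uhrf1 fall on both sides of 0.

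**Figure D4:**
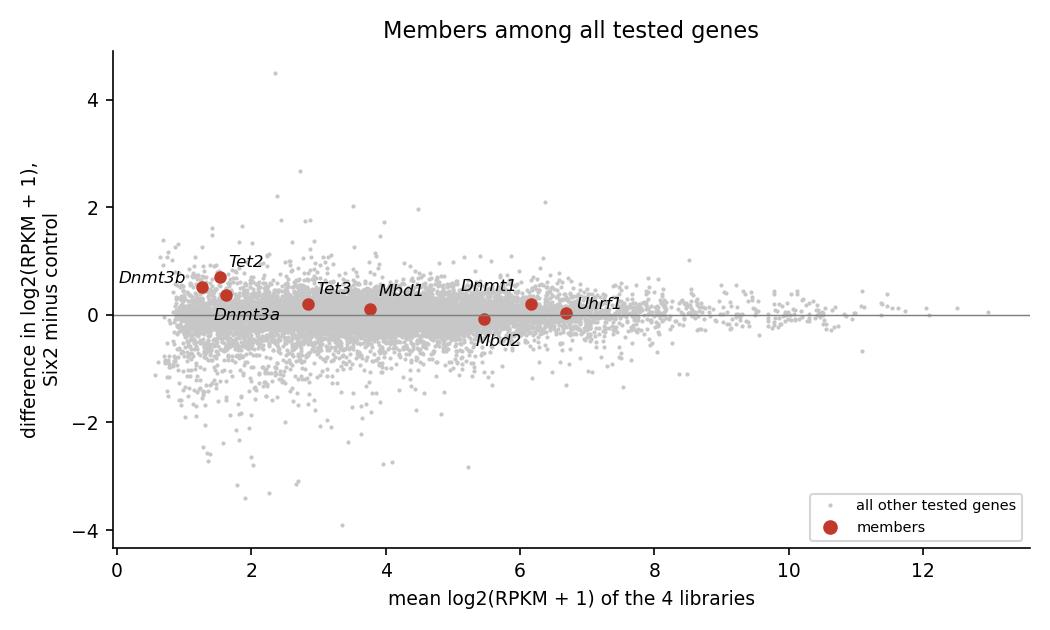
Difference in log2(RPKM + 1), Six2 minus control, against mean log2(RPKM + 1) for the 10654 tested genes (grey) and the 8 tested members (red). The members lie between -0.08 and 0.70, inside the cloud of genes of similar level.

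For Tet2 and Dnmt3b, the 2 tested members with the largest differences in the fit on all 4 libraries, the genes of most similar pattern were found by the Euclidean distance between log2(RPKM + 1) values centred on each gene's mean over the 4 libraries. Nearest to Tet2 were Slc27a1, a fatty acid transporter gene, at a distance of 0.0595, Mgat4b, an N-glycan branching enzyme gene, at 0.0646, and Phlda1 at 0.0848. Among those nearest to Dnmt3b were Shmt1, a one-carbon enzyme gene, at 0.0429, and Spc24, a kinetochore gene, at 0.0566. The distances of Tet2 and Dnmt3b from their own means were 0.811 and 0.669 on the same scale. Likeness over 4 libraries is a description of these libraries only.

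Other genes of the pathway were read from lists. In the fit on group alone, 0 members of these lists passed the test over all genes in either direction. Of 9 other methyl-CpG readers, all tested, the median difference was -0.01. Without overlap 3 genes lay above and 1 below the control libraries, beside 21.9% and 25.5% of all tested genes. At an unadjusted p under 0.05 there was 1 gene in each direction, beside 7.36% higher and 9.66% lower of all tested genes. Mbd3, a NuRD subunit that lacks binding to methylated CpG in mammals, had the highest level of them with 86.4 and 81.9 RPKM in the Six2-labelled libraries and 74.7 and 76.7 RPKM in the control libraries (difference 0.15). Mbd6 had 16.3 and 13.7 RPKM in the Six2-labelled libraries and 11.1 and 10.8 RPKM in the control libraries (difference 0.42, limma-trend adjusted p = 0.221). Uhrf2, the paralog of Uhrf1, had 17.4 and 20.4 RPKM in the Six2-labelled libraries and 24.0 and 26.3 RPKM in the control libraries (difference -0.40, limma-trend adjusted p = 0.237). Zbtb38 differed by -0.24.

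The partners and regulators of the methyltransferases had a median difference of 0.04 over 12 tested genes of 14, with 0 higher and 2 lower at an unadjusted p under 0.05, beside 7.36% and 9.66% of all tested genes. Dnmt3l and Dppa3, genes of germ cells and early embryos, were listed at 0 in all 4 libraries. Usp7, which encodes a deubiquitinase that stabilises DNMT1, had 33.4 and 35.1 RPKM in the Six2-labelled libraries and 44.4 and 45.1 RPKM in the control libraries, with no overlap (difference -0.38, SE 0.0906, limma-trend adjusted p = 0.177). Zfp57, a zinc finger gene that protects imprint methylation, had 2.16 and 2.50 RPKM in the Six2-labelled libraries and 3.61 and 4.06 RPKM in the control libraries, also apart (difference -0.54, SE 0.128, limma-trend adjusted p = 0.176). Lig1 and Setdb1, a DNA ligase and a histone methyltransferase gene, differed by 0.22 and 0.29. Trim28, the most abundant gene of the list, differed by 0.03, and the histone methyltransferase gene Ehmt2 by -0.14. With chromosome medians removed the differences were 0.26 for Lig1, 0.07 for Setdb1, 0.07 for Trim28, 0.07 for Ehmt2, -0.16 for Usp7 and -0.33 for Zfp57.

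Genes for active demethylation and TET regulation had a median of 0.00 over 9 tested genes of 12. At an unadjusted p under 0.05 there were 0 in either direction, beside 7.36% higher and 9.66% lower of all tested genes. Idh1 and Idh2 make the cosubstrate of the TET enzymes. Idh1 had 213 and 107 RPKM in the Six2-labelled libraries and 141 and 82.0 RPKM in the control libraries, so the groups overlapped and replicate 1 was the higher in both. Idh2 lay between 174.0 and 178 RPKM in all 4 libraries. Apex1, of base excision repair, differed by 0.16, and the stress genes Gadd45g and Gadd45b by -0.28 and -0.46. In the S-adenosylmethionine cycle, which supplies the methyl group, the median difference was 0.05 over 10 tested genes. Here too 0 passed an unadjusted p under 0.05 in either direction, beside 7.36% higher and 9.66% lower of all tested genes. Shmt1 differed by 0.56 (SE 0.225, limma-trend adjusted p = 0.325), Mtrr by 0.20, Ahcy by 0.14, Shmt2 by 0.11 and Mat2b by -0.13.

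The NuRD complex, the partner of MBD2, had a median of -0.01 over 11 tested genes, with 1 higher and 0 lower at an unadjusted p under 0.05, beside 7.36% and 9.66% of all tested genes. Its subunit gene Mta1 averaged 61.7 ± 2.40 RPKM in the Six2-labelled libraries and 50.2 ± 2.33 RPKM in the control libraries (SD, n = 2 each; difference 0.29, limma-trend adjusted p = 0.252). Mta2 averaged 56.5 ± 0.126 RPKM in the Six2-labelled libraries and 64.0 ± 0.938 RPKM in the control libraries (SD, n = 2 each; difference -0.18, limma-trend adjusted p = 0.393). Gatad2b differed by 0.23 and Mta3 by -0.20, and the abundant subunits Rbbp7 and Hdac1 by 0.03 and -0.01. With chromosome medians removed the differences were 0.05 for Mta1, -0.04 for Mta2, 0.02 for Gatad2b, 0.01 for Mta3, 0.09 for Rbbp7 and 0.05 for Hdac1.

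**Figure D5:**
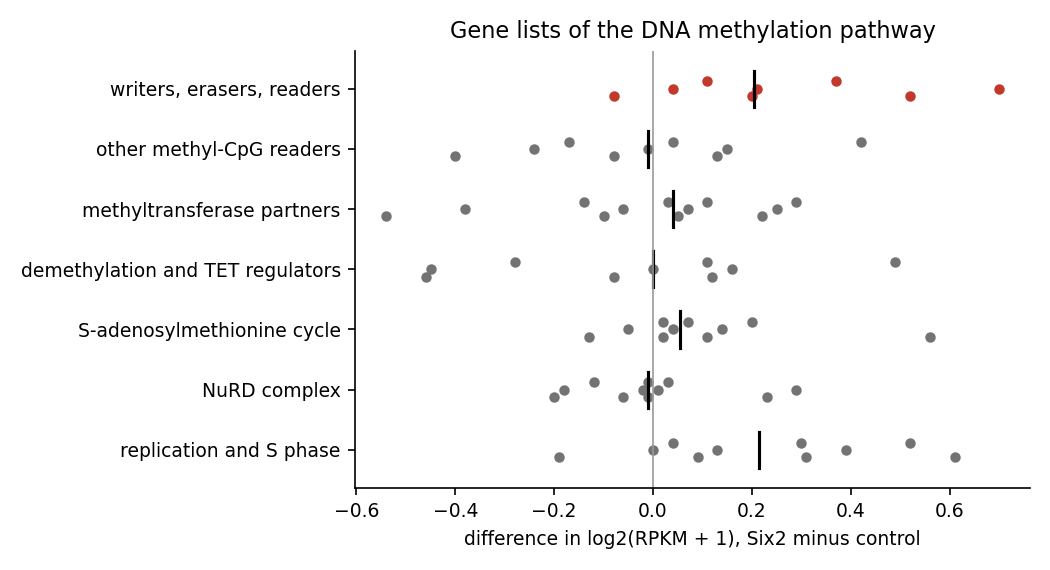
Differences in log2(RPKM + 1), Six2 minus control, of the tested genes in 7 lists, the members and 6 lists of related genes, 1 point a gene, with the median as a black bar. The medians of the members and of the replication genes lie at 0.20 and 0.21, and those of the 5 other lists plotted lie between -0.01 and 0.05.

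Dnmt1 and Uhrf1 are transcribed mainly in S phase. Of 10 genes of DNA replication and S phase, 8 had a difference above 0, beside 47.9% of all tested genes, and the median was 0.21. Both Six2-labelled libraries lay above the control libraries for 4 genes and below for 1, beside 21.9% and 25.5% of all tested genes. At an unadjusted p under 0.05 there were 2 higher and 0 lower, beside 7.36% and 9.66%. Mcm6 had 115 and 117 RPKM in the Six2-labelled libraries and 81.3 and 80.0 RPKM in the control libraries (difference 0.52, limma-trend adjusted p = 0.127), and Mcm3 differed by 0.61. Pcna, Mcm7 and Ccne1 differed by 0.09, 0.04 and -0.00, and Mcm4 by -0.19. With chromosome medians removed the differences were 0.20 for Mcm6, 0.29 for Mcm3, 0.13 for Pcna, 0.08 for Mcm7, 0.04 for Ccne1 and 0.03 for Mcm4. The part that chromosome-wide shifts have in these values was not tested. The list summed to 1012 and 1155 RPKM in the Six2-labelled libraries and 892 and 995 RPKM in the control libraries. Replicate 2 was the higher library in both groups for 8 of the 10 genes and for 6 of the 8 tested members. The share over all tested genes was not taken for these counts. Across genes the replicate differences of the 2 groups correlated at r = 0.818. The part of replication genes in the Dnmt1 value was not tested.

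Cdh1 had 0.186 and 0.103 RPKM in the Six2-labelled libraries and 14.6 and 8.40 RPKM in the control libraries, the context in which the methylation genes are of interest (difference -3.40, limma-trend adjusted p = 0.0592). The ratio of means was 0.0126, Six2 over control, and the difference was -5.54 with a pseudocount of 0.1 and -6.36 with voom. Cdh1 passed with median-of-ratios scaling (limma-trend adjusted p = 0.0477). It also passed with replicate number as a block (limma-trend adjusted p = 1.42e-05), a fit that called 43.5% of all tested genes. Cdh1 did not pass with a pseudocount of 0.1 (limma-trend adjusted p = 0.0513), with voom (0.0625), with chromosome medians removed (0.0629) or with no filter (0.116). With any 1 library left out its difference ran from -3.77 to -3.04. Among genes encoding its direct repressors, Snai1 differed by -0.66 and Zeb2 by 0.16, Snai2 and Twist1 were listed at 0 in all libraries, and Zeb1 stayed under 1 RPKM. No methylation of DNA was measured here, so nothing in these values speaks to the methylation state of the Cdh1 promoter. The germline genes that DNA methylation keeps silent in somatic cells were at or near 0 in both groups. Of 12 such genes, 7, among them Dazl and Ddx4, were listed at 0 in all 4 libraries, and the highest value of any was 0.11 RPKM, for Tex101 in control replicate 1. The list summed to 0.0633 and 0.0671 RPKM in the Six2-labelled libraries and 0.153 and 0.161 RPKM in the control libraries. For a gene of 1 kb listed at 0, the limit of 3 reads comes to 0.0601 and 0.0368 RPKM in the Six2-labelled libraries and 0.0696 and 0.0716 RPKM in the control libraries, and this covers counting error only.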

How the data were processed

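The authors deposited RPKM values of 24421 genes in 4 libraries, made with a stranded mRNA kit, per the labels' protocols. The submitters' processing notes list HTSeq 0.8.0, TopHat2 2.1.1 and Bowtie2 among the tools, with Picard 2.9.4, SAMtools 1.5, FastQC 0.11.5 and bcl2fastq 1.8.4, and mm10 (GRCm38) as build. The sources used here give no annotation, gene lengths or strand setting. Groups came from sample titles. Whole reads were recovered from the RPKM steps for 14458 of 14459 genes above 0 in 3 or more libraries, within 0.001 reads; a factor common to reads and length cannot be seen. limma 3.58.1 in R 4.3.3 fitted log2(RPKM + 1) on group with a variance trend, for 10654 genes at 1 RPKM or more in 2 libraries. P-values were two-sided, adjusted by Benjamini-Hochberg and read at 0.05. The fit was also run on simulated reads. Those were drawn without a replicate difference shared by the groups, so that run cannot show how the p-values behave in these libraries. Positions in the annotation are GENCODE M21, matched by symbol. Alternatives changed the pseudocount, filter, scaling, unit, chromosome medians, replicate block and libraries used. All 9 members were named, and from each list of other genes the 2 of highest level and up to 2 in each direction of smallest unadjusted p. Marker genes and genes at 0 were named beside them, and some genes that the rule names are not reported here. Members and lists were chosen with earlier results of these data known.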

Additional observations from a re-analysis of the deposited data

How the results depend on the processing

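The 8 tested members were fitted again under 10 alternatives, and of these 80 values 74 kept their direction and their side of the threshold, 2 reversed and 4 passed the threshold. Both reversals were of Uhrf1, at -0.11 without control replicate 1 and -0.11 without Six2 replicate 2, in a range of -0.11 to 0.19 with 1 library left out. Differences of Dnmt1, Dnmt3a, Dnmt3b, Tet2, Tet3 and Mbd1 stayed above 0 and that of Mbd2 below 0 in all 10. Over all genes, calls were 3 higher and 9 lower; with no filter they were 0 and 0 (975 and 1528 at an unadjusted p under 0.05; limma-trend smallest adjusted p = 0.0519), and with median-of-ratios scaling 24 were lower. With 1 library left out, 2 to 18 genes were higher and 9 to 50 lower, most of both without Six2 replicate 2, and 0 members passed; a lone library is then assumed to vary like the other group. The cause of these changes was not tested. Both groups carry replicate numbers 1 and 2, but nothing says that a number marks a shared culture or day. Across genes the difference between replicates in the Six2-labelled libraries correlated with that in the control libraries at r = 0.818. With the replicate block 2133 genes were higher and 2506 lower, 43.5% of those tested, and 4 members were higher: Dnmt1 (limma-trend adjusted p = 0.0110), Dnmt3a (0.0144), Dnmt3b (0.00440) and Tet2 (0.00157). Tet3 was at 0.0502 and Cdh1 at 1.42e-05 there. Depth limits Tet1 most, at 3 to 47 reads a library, and then Dnmt3b, at 133 to 805.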

Other observations

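Genes chosen after their values were seen add to the picture of methyltransferase and demethylation transcripts. Trdmt1, a homologue of the DNA methyltransferases that methylates transfer RNA, averaged 3.19 ± 0.749 RPKM in the Six2-labelled libraries and 2.50 ± 0.712 RPKM in the control libraries (SD, n = 2 each). The groups overlapped, and replicate 1 was the higher library in both, as for Tet2 (log2(RPKM + 1) difference 0.26, SE 0.218, limma-trend adjusted p = 0.611). Tdg, the glycosylase gene that removes the oxidised bases made by TET enzymes, was listed at only 0.467 and 0.400 RPKM in the Six2-labelled libraries and 0.288 and 0.467 RPKM in the control libraries. GENCODE lists a processed pseudogene, Tdg-ps, and how reads shared by near-identical copies were counted is not known, so this level is uncertain.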
